A study of Mus musculus with 12 samples.

Results

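The genes described here encode the subunits of voltage-gated sodium, calcium and HCN (hyperpolarization-activated) channels and of the potassium channel families, in sorted cells of embryonic mouse hypothalamus. They were chosen by symbol, as the Scn, Kcn, Cacn and Hcn genes with at least 10 counts in at least 3 of the 12 libraries. Of 136 genes with such a symbol, 118 passed that rule, out of 18177 genes of any name that passed the same count rule. The 18 symbols below it were Kcna7, Kcna10, Kcne1, Kcne3, Kcng3, Kcnj1, Kcnj13, Kcnj15, Kcnk9, Kcnk15, Kcnk16, Kcnk18, Kcnmb3, Kcnq1, Kcnv2, Scn4a, Scn4b and Scn10a. Just inside the rule, with 10 counts reached in 3 libraries, stood Cacna1f, Cacna1s, Cacng1, Kcne2 and Scn7a, with 58 to 100 reads over all libraries. Just outside it stood Kcnk9, which reached 10 counts in 2 libraries and had 90 reads in all.

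Hypothalami of C57BL/6 embryos of day 18 were dissociated, infected at a multiplicity of 10 and grown for a week as neurospheres, floating balls of neural cells, with bFGF at 10 ng/ml. Fluorescent cells were then sorted from non-fluorescent ones. The study compared mCherry-positive cells with mCherry-negative cells, where an AAV carried the reporter for cells making HCRT (hypocretin), and EGFP-positive cells with EGFP-negative cells, where a lentivirus carried the reporter for cells making MCH (melanin-concentrating hormone). Each of the 4 groups holds 3 libraries. All cells of a sort, positive and negative, had been exposed to its virus, and the promoters that drove the reporters are not given in the sources used here. SMART-Seq v4 cDNA was made from 0.8 ng of RNA in the mCherry sort and from 2 ng in the EGFP sort, so virus, RNA input and reporter cannot be told apart between sorts. Whether replicates come from separate cultures is not stated, so the p-values below reflect the spread among these libraries alone, and that spread may be technical.

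An action potential rises through sodium channels and ends through potassium channels, while calcium channels couple it to transmitter release and to signalling inside the cell. Inward rectifier and two-pore-domain potassium channels hold the resting potential, in astrocytes as well as in neurons, and HCN channels carry an inward current after hyperpolarization that supports rhythmic firing. Several of these families have, beside their pore-forming subunits, auxiliary subunits that set trafficking and gating. Several genes caught by their symbol serve other receptors: most of the calcium channel gamma family are known as auxiliary subunits of AMPA-type glutamate receptors, and Scn7a encodes a sodium-sensing relative of the voltage-gated channels.

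Libraries held 16.3 to 32.9 M reads in genes (M for megareads). The 118 channel genes together took only a small share of them: 0.176% ± 0.0301 in mCherry-positive, 0.157% ± 0.0128 in mCherry-negative, 0.118% ± 0.00645 in EGFP-positive libraries and 0.137% ± 0.00267 in EGFP-negative ones (SD, n = 3 each). The lowest mCherry-positive library held 0.141%, below the mCherry-negative range of 0.144% to 0.170%, while the EGFP-positive range of 0.111% to 0.124% lay wholly below the EGFP-negative range of 0.134% to 0.140%. Each library had a read in 107 to 117 of the 118 genes. As a check of the sorts, Pmch, the gene of MCH, had 16.3 to 17.8 CPM (counts for each megaread that fell in genes) in EGFP-positive libraries and 4.01 to 5.12 CPM in EGFP-negative libraries. Hcrt had 21 reads over the mCherry-positive libraries and 11 over the mCherry-negative libraries, too few to check that sort.

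The cells were a mixture with markers of neurons and of glia, and these bulk reads do not assign the channel genes to either. Summed over their lists, 15 neuron markers took 1473 to 3015 CPM in mCherry-positive, 2139 to 2851 CPM in mCherry-negative, 1110 to 1399 CPM in EGFP-positive libraries and 1882 to 1927 CPM in EGFP-negative ones. The 12 astrocyte markers took 10481 to 14548 CPM in mCherry-positive, 5295 to 9223 CPM in mCherry-negative, 16965 to 20610 CPM in EGFP-positive libraries and 9651 to 9949 CPM in EGFP-negative ones. In bulk samples like these, fewer cells of a type and less RNA per cell cannot be told apart.

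Most channel genes stood at low levels. Per kilobase of exon, their median level over the 12 libraries was 0.743 CPM per kb, against 3.66 CPM per kb for the 18128 annotated genes under the same count rule. Of the 118 genes, 47 reached 1 CPM per kb and 7 reached 10 CPM per kb, and the lowest was Cacna1f, a calcium channel best known from photoreceptors, at 0.0205 CPM per kb. The highest was Kcnip3, a calcium-binding KChIP protein that associates with Kv4 potassium channels, at 51.0 CPM per kb. Kcnip3 had 39.3 ± 2.03 CPM per kb in mCherry-positive, 49.1 ± 7.12 in mCherry-negative, 56.3 ± 3.61 in EGFP-positive and 59.2 ± 2.47 in EGFP-negative cells (SD, n = 3 each).

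After Kcnip3 came Cacng5 at 15.5 CPM per kb and Cacng4 at 15.3 CPM per kb, both of the gamma family. Next stood Cacnb3, a cytoplasmic beta subunit of high-voltage calcium channels, at 12.3 CPM per kb, and Kcnj16, an inward rectifier subunit of glia and kidney, at 11.5 CPM per kb. Both two-pore-domain genes above 10 CPM per kb are known from glia as well as neurons: Kcnk2 had 11.0 CPM per kb and Kcnk1 10.9 CPM per kb. None of these 7 was a pore-forming sodium or calcium channel subunit. Among those, the highest were Scn8a at 1.93 CPM per kb and Cacna1h, a T-type calcium channel, at 1.04 CPM per kb.

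**Figure D1:**
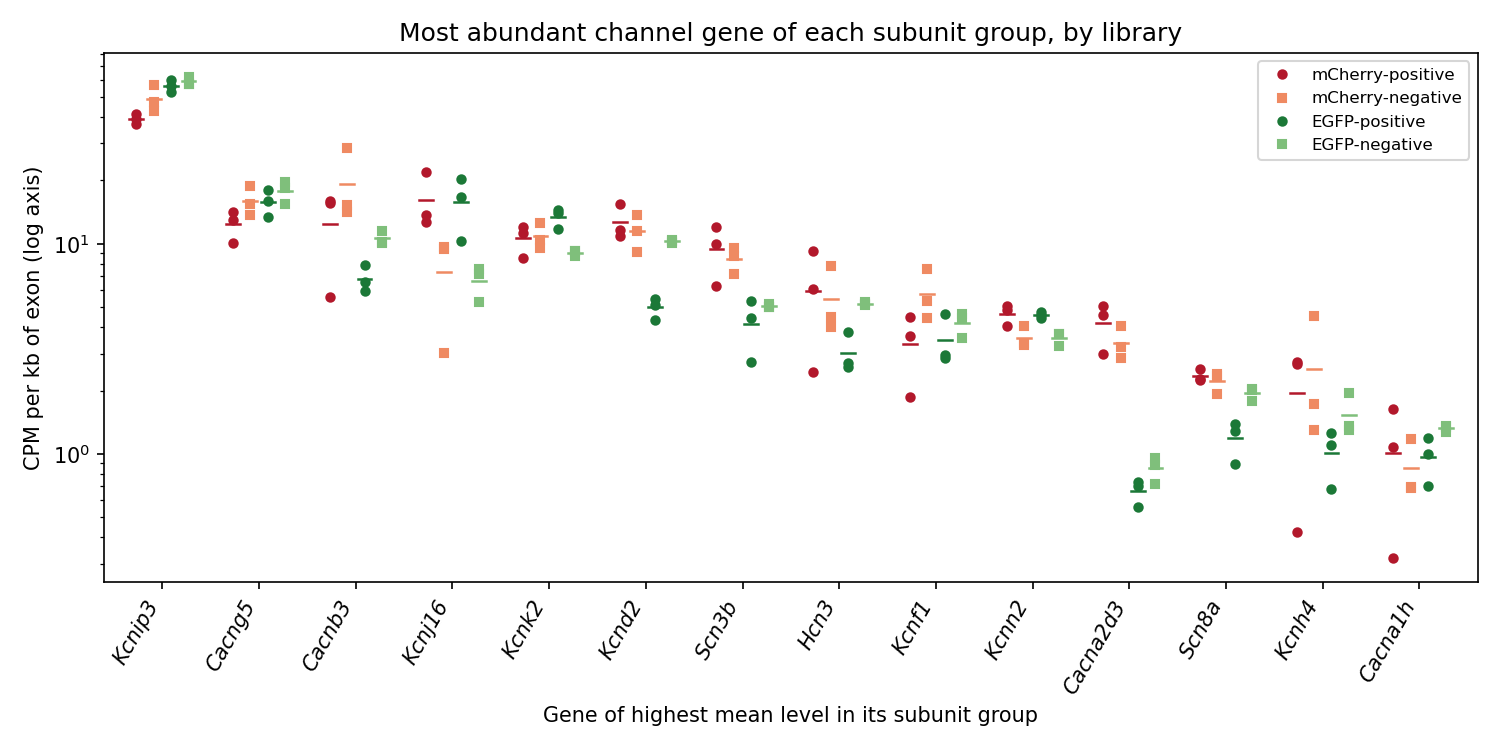
CPM per kb of exon (log axis) of the most abundant channel gene of each of 14 subunit groups, 1 point per library and a bar at the mean of each group of 3. Kcnip3 stands highest in all 4 groups, and Cacna2d3 lies lower in both EGFP groups than in both mCherry groups.

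The other leaders of their subunit groups were lower. Kcnd2, a Kv4 channel of the A-type current, averaged 9.85 CPM per kb, and Scn3b, a sodium channel beta subunit, 6.79 CPM per kb. Hcn3 averaged 4.90, Kcnf1 4.20, Kcnn2 4.10, Cacna2d3 2.28 and Kcnh4 1.76 CPM per kb. Cacna2d3, an alpha2delta subunit, differed more between sorts than within them. It had 26.02, 44.2 and 40.04 CPM in mCherry-positive libraries and 24.8, 35.3 and 28.2 CPM in mCherry-negative libraries, against 4.87, 6.39 and 6.11 CPM in EGFP-positive and 6.24, 8.37 and 7.73 CPM in EGFP-negative libraries. All 6 libraries of the mCherry sort stood above all 6 of the EGFP sort. Hcn2, picked after its values were seen, had the same pattern, with 6.29 to 17.8 CPM in mCherry-sort libraries and 0.420 to 2.17 CPM in EGFP-sort libraries. The sorts differ in virus and RNA input, and no test was made across them.

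The EGFP comparison asked how cells with the MCH reporter differ from the other cells of their cultures. It moved more channel genes down than up: of 108 tested, 12 were lower and 5 higher in EGFP-positive cells at an adjusted p under 0.05, in the quasi-likelihood test of edgeR (Benjamini-Hochberg adjustment over all genes). Over all 16326 genes tested, 16.1% were called, 7.07% lower and 8.99% higher. Of the channel genes 15.7% were called, 11.1% lower and 4.63% higher, so the share called was near that of all genes. Their median log2 fold change was -0.32, against -0.01 for all genes tested, with 71 negative and 37 positive signs. Mitochondrial genes took 0.766% to 0.872% of gene reads in EGFP-positive libraries, against 1.16% to 1.36% in EGFP-negative ones, and reads outside annotated features numbered 5.51 to 6.93 for every 100 gene reads, against 8.58 to 9.95; the part of these in the shift was not tested. Overlap was judged on plain CPM, without the scaling between libraries that the fits use, so it does not compare directly with the fold changes. On that scale, every EGFP-positive library lay below every EGFP-negative one in 40 of the 108 (37.0%), against 24.5% of all genes. In 8 (7.41%) every EGFP-positive library lay above, against 13.4% of all genes. With 1 library left out the counts ran from 3 lower and 1 higher (without EGFP-positive replicate 2) to 26 lower and 9 higher (without EGFP-positive replicate 1). The shares of all genes called in such fits are not given here, so these counts do not set channel genes apart from other genes. Cacna1b, Kcnd2 and Kcnj16 were among the channel genes called in all 6 such fits. Fitted with the mCherry libraries, 4 were lower and 2 higher, against 1.9% and 2.54% of all genes; Kcnd2 was called there, but Cacna1b and Kcnj16 were not (edgeR adjusted p = 0.0601 and 0.0604). DESeq2 called 22 lower and 5 higher, against 9.52% and 12% of all genes, and limma-voom 17 lower and 5 higher, against 7.8% and 9.06%. At an unadjusted p under 0.05 there were 42 (38.9%), against 30.5% of all genes. The 10 genes not tested for low counts were Cacna1f, Cacna1s, Cacng1, Kcne2, Kcne4, Kcnj8, Kcnk4, Kcnk6, Scn7a and Scn11a.

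**Figure D2:**
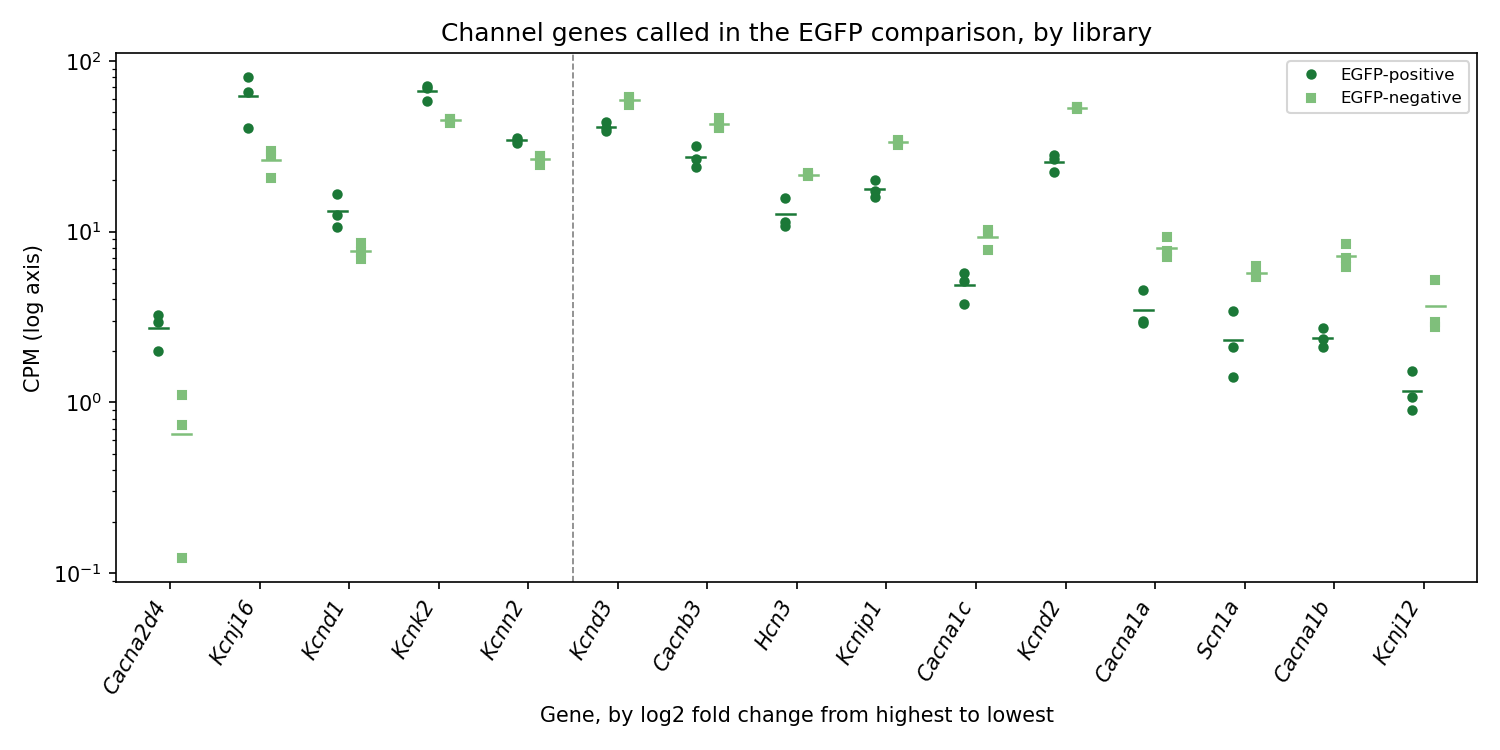
CPM (log axis) in EGFP-positive and EGFP-negative libraries of 15 channel genes called in the EGFP comparison, 1 point per library and a bar at the mean of 3, ordered by log2 fold change. The dashed line parts the 5 higher genes on the left, led by Cacna2d4, from 10 lower ones, and in none of the 15 do the groups overlap.

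Among the pores of calcium channels, all 8 alpha1 genes tested had a negative sign, with a median of -1.09, and Cacna1a, Cacna1b and Cacna1c were called lower. Cacna1b, the N-type channel of presynaptic terminals, had 2.35, 2.71 and 2.10 CPM in EGFP-positive libraries, against 6.97, 6.16 and 8.47 CPM in EGFP-negative libraries. All EGFP-positive libraries were below all EGFP-negative ones, and the log2 fold change came to -1.48 ± 0.24 (SE; edgeR adjusted p = 0.00360).

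Cacna1a, the P/Q-type channel that shares that presynaptic role, had 4.52, 2.97 and 2.91 CPM in EGFP-positive libraries, against 9.28, 7.09 and 7.67 CPM in EGFP-negative libraries. It was lower by a log2 fold change of -1.12 ± 0.24 (SE; edgeR adjusted p = 0.0139), without overlap. Cacna1c, an L-type channel, had 5.75, 5.13 and 3.75 CPM in EGFP-positive libraries, against 10.3, 7.79 and 9.76 CPM in EGFP-negative libraries. Its log2 fold change was -0.83 ± 0.22 (SE; edgeR adjusted p = 0.0338), and the groups did not overlap. The other 5 did not pass. The R-type gene Cacna1e overlapped between groups (log2 fold change -0.37; edgeR adjusted p = 0.325). The L-type gene Cacna1d had a log2 fold change of -1.06 (edgeR adjusted p = 0.129) and the T-type genes Cacna1g -1.17 (0.0732), Cacna1h -0.33 (0.337) and Cacna1i -1.70 (0.0524).

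Of the auxiliary calcium channel genes, 1 was called in each direction. Cacnb3 had 31.8, 26.5 and 23.8 CPM in EGFP-positive libraries, against 40.6, 46.0 and 41.0 CPM in EGFP-negative libraries, a log2 fold change of -0.53 ± 0.15 (SE; edgeR adjusted p = 0.0382), without overlap. Cacna2d4, an alpha2delta subunit known from the retina, had 2.00, 2.94 and 3.23 CPM in EGFP-positive libraries, against 0.122, 0.736 and 1.10 CPM in EGFP-negative libraries. All 3 EGFP-positive libraries were above the EGFP-negative ones. The log2 fold change of 2.22 ± 0.59 (SE, edgeR adjusted p = 0.0325) was the largest among the channel genes called in the EGFP sort, at a low level. Cacna2d4 lies 40.1 kb from Cacna1c on chromosome 6, so these neighbouring genes moved in opposite directions. In the gamma family none of 7 tested was called; Cacng7 had a log2 fold change of -1.03 (edgeR adjusted p = 0.0776).

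Potassium channels were called in both directions. Kcnd2 (ENSMUSG00000060882) fell in every EGFP-positive library: it had 22.3, 26.5 and 28.3 CPM in EGFP-positive libraries, against 53.8, 53.4 and 52.2 CPM in EGFP-negative libraries. No libraries overlapped, and the log2 fold change came to -0.94 ± 0.14 (SE; edgeR adjusted p = 0.00303). Kcnd3, another Kv4 pore gene, had 43.6, 40.4 and 38.8 CPM in EGFP-positive libraries, against 61.0, 61.1 and 55.2 CPM in EGFP-negative libraries, a log2 fold change of -0.42 ± 0.12 (SE; edgeR adjusted p = 0.0435). The Kv4 family was not uniform, since Kcnd1 was higher. It had 10.6, 12.5 and 16.6 CPM in EGFP-positive libraries, against 7.54, 8.60 and 6.94 CPM in EGFP-negative libraries, a log2 fold change of 0.89 ± 0.22 (SE; edgeR adjusted p = 0.0228), without overlap.

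Kcnip1, a KChIP partner of Kv4 channels, fell with Kcnd2 and Kcnd3. It had 17.2, 15.9 and 20.0 CPM in EGFP-positive libraries, against 32.3, 34.0 and 34.5 CPM in EGFP-negative libraries, a log2 fold change of -0.81 ± 0.15 (SE; edgeR adjusted p = 0.00698). Kcnip3, the most abundant channel gene, had 187, 199 and 213 CPM in EGFP-positive libraries, against 205, 220 and 205 CPM in EGFP-negative libraries, and these overlap (log2 fold change 0.04 ± 0.10, SE; edgeR adjusted p = 0.857).

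Inward rectifiers split. Kcnj16, which pairs with the product of Kcnj10 in glial potassium channels, had 40.4, 65.7 and 80.4 CPM in EGFP-positive libraries, against 20.7, 29.8 and 28.1 CPM in EGFP-negative libraries. All EGFP-positive libraries were above, with a log2 fold change of 1.36 ± 0.25 (SE; edgeR adjusted p = 0.00739). Its partner Kcnj10 went the other way in sign and did not pass, with 20.5, 18.5 and 14.9 CPM in EGFP-positive libraries, against 35.3, 25.2 and 26.8 CPM in EGFP-negative libraries (log2 fold change -0.59 ± 0.19, SE; edgeR adjusted p = 0.0591). Kcnj12, an inward rectifier of excitable cells, had 1.53, 1.08 and 0.906 CPM in EGFP-positive libraries, against 2.76, 5.23 and 2.95 CPM in EGFP-negative libraries, a log2 fold change of -1.56 ± 0.37 (SE; edgeR adjusted p = 0.0209), without overlap.

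Of the two-pore-domain and calcium-activated channels, 1 each was higher. Kcnk2, a mechanically and thermally gated leak channel, had 58.1, 69.2 and 71.7 CPM in EGFP-positive libraries, against 45.6, 45.5 and 43.3 CPM in EGFP-negative libraries, a log2 fold change of 0.68 ± 0.13 (SE; edgeR adjusted p = 0.00940). Kcnn2, a small-conductance calcium-activated channel of the after-hyperpolarization, had 35.4, 34.3 and 33.0 CPM in EGFP-positive libraries, against 24.4, 27.8 and 27.9 CPM in EGFP-negative libraries, a log2 fold change of 0.47 ± 0.13 (SE; edgeR adjusted p = 0.0422). Neither pair of groups overlapped. Of the 11 calcium- or sodium-activated genes tested, 9 had a positive sign, with a median of 0.21. Kcnt2, a sodium-activated channel, had a log2 fold change of 1.08 (edgeR adjusted p = 0.108) and Kcnn4, of intermediate conductance, 0.91 (edgeR adjusted p = 0.103), and neither passed. Exons on the opposite strand overlap 12.2% of the exonic bases of Kcnk2 and 8.13% of those of Kcnn2, and the strand setting of the counting is not given, so how reads there were assigned is uncertain.

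All 6 sodium channel alpha genes tested had a negative sign, with a median of -0.54, and 1 passed. Scn1a, the alpha subunit known from inhibitory interneurons, had 2.11, 1.41 and 3.43 CPM in EGFP-positive libraries, against 5.51, 6.28 and 5.40 CPM in EGFP-negative libraries, a log2 fold change of -1.18 ± 0.33 (SE; edgeR adjusted p = 0.0381), without overlap. Scn8a, the most abundant of them, had 21.8, 14.2 and 20.1 CPM in EGFP-positive libraries, against 32.2, 31.6 and 28.1 CPM in EGFP-negative libraries, and just missed the threshold (log2 fold change -0.61 ± 0.18, SE; edgeR adjusted p = 0.0521).

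The HCN genes tested all had a negative sign, with a median of -0.68. Hcn3 had 15.7, 11.3 and 10.8 CPM in EGFP-positive libraries, against 21.3, 21.4 and 21.9 CPM in EGFP-negative libraries, a log2 fold change of -0.67 ± 0.18 (SE; edgeR adjusted p = 0.0311). Its groups did not overlap, and 17.1% of the exonic bases of Hcn3 are overlapped by exons of Pklr on the other strand.

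Cell type markers moved beside these genes in the EGFP sort. Neuron markers were lower in 10 of 15, as Gap43 and Stmn2, and none higher; their summed ranges are given above and do not overlap. Markers of oligodendrocytes and their precursors were lower in 14 of 15, with sums of 2225 to 2291 CPM in EGFP-positive libraries, against 7346 to 7747 CPM in EGFP-negative ones. Astrocyte markers were higher in 9 of 12 and lower in 1 (S100b), ependymal markers higher in 6 of 9 (166 to 189 CPM against 98.3 to 108 CPM), and radial glia and progenitor markers higher in 4 of 10 (4794 to 7026 CPM against 4243 to 4691 CPM). No listed gene of these 5 lists was at 0 in any group. The part of these cell types in the channel gene differences was not tested.

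Among the smaller populations, microglia markers were lower in 7 of 9 tested and higher in 1, at 8.40 to 8.81 CPM in EGFP-positive libraries and 38.1 to 52.0 CPM in EGFP-negative ones. Mural and fibroblast markers were lower in 6 of 10 tested (Col1a1, Dcn, Col3a1, Col1a2, Cspg4 and Lum) and higher in 3 (Acta2, Tagln and Pdgfrb). Their sum pools both directions, at 115 to 169 CPM in EGFP-positive libraries, against 521 to 550 CPM in EGFP-negative ones. Cspg4 is also in the oligodendrocyte and precursor list, and Anpep was at 0 in EGFP-positive cells. Of 4 endothelial markers tested, Kdr alone was called, and it was higher. It had 20.1 ± 6.75 CPM in EGFP-positive and 2.35 ± 1.17 CPM in EGFP-negative cells (SD, n = 3 each). Kdr made up most of the endothelial sum of 15.3 to 30.1 CPM in EGFP-positive libraries, against 3.13 to 6.69 CPM in EGFP-negative ones. Tek and Cdh5 were at 0 in EGFP-positive cells. Pituitary markers were lower in 3 of 7 (37.2 to 64.5 CPM against 357 to 466 CPM), with Pou1f1 and Fshb at 0 in EGFP-positive cells. Cell division markers were lower in 1 of 10 (904 to 941 CPM against 1110 to 1128 CPM).

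The promoters of 3 called genes are printed as examples of both directions: Kcnd2 and Cacna1b were lower and Kcnj16 was higher in EGFP-positive cells, each in the 6-library fit and in every fit with 1 library of the sort left out, though Kcnd2 alone of these held in the fit of all 12 libraries. Each sequence holds the 250 bases before the start of the gene in RefSeq (GRCm38.p6), on the strand of the gene, 5′ to 3′. Capitals mark the GC box GGGCGG, searched on both strands.
Kcnd2 (chr6:21215096-21215345, plus strand): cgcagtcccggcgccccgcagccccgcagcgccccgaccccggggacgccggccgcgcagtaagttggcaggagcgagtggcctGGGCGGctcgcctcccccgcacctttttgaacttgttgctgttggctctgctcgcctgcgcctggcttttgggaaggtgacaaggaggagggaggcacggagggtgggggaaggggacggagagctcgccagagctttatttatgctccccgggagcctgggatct
Cacna1b (chr2:24763153-24763402, minus strand): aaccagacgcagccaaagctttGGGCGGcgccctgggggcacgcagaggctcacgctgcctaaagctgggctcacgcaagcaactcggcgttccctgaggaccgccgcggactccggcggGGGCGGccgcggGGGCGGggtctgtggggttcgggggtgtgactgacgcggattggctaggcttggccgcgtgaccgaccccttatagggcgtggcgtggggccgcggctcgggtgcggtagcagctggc
Kcnj16 (chr11:110967783-110968032, plus strand, the outermost of 4 listed starts): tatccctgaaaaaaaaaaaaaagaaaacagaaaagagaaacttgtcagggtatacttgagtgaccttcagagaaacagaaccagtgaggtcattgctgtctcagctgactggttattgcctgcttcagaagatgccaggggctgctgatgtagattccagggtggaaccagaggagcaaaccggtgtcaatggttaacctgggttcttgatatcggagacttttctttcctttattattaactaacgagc
The Kcnd2 window holds 22 CG dinucleotides and 1 GC box, the Cacna1b window 29 and 3, and the Kcnj16 window 3 and 0. Windows of this length were at hand for 85 of the 118 channel genes, 120 windows in all. Their median was 8 CG dinucleotides, against 6 in the 32851 windows of all genes. The 3 printed windows do not stand for a contrast by direction: over called genes the median was 4.5 (1 to 28) in 8 windows of 2 higher genes and 6 (2 to 48) in 13 windows of 8 lower genes. GGGCGG stood in 45.8% of the channel gene windows and in 32.7% of all windows, and the TATA box letters TATAAA in 3.33% and 12.4%. These are matches of letters and were not tested as sites.

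The mCherry comparison asked the same of cells with the HCRT reporter. Of 111 channel genes tested, 1 was called higher in mCherry-positive cells and none lower, in the same edgeR test. That is 0.901% of the channel genes, against 1.2% of all 17369 genes, 0.541% higher and 0.656% lower. At an unadjusted p under 0.05 there were 19 channel genes (17.1%), against 18.6% of all genes. DESeq2 called 11 higher and 1 lower, against 6.04% and 4.04% of the 14646 genes it gave an adjusted p, and limma-voom called 1 higher and none lower, against 0.576% and 0.841% of all genes. Fitted with the EGFP libraries, 12 were higher and none lower, against 4.89% and 4.59% of all genes. Mitochondrial genes took 1.06% to 1.54% of gene reads in mCherry-positive libraries, against 0.805% to 0.953% in mCherry-negative ones, and their part in these values was not tested. The median log2 fold change was 0.34, against 0.02 for all genes tested, with 76 positive and 35 negative signs. In plain CPM, all mCherry-positive libraries lay above all mCherry-negative ones in 17 of the 111 (15.3%), against 12.7% of all genes. They lay below in 3 (2.70%), against 12.7% of all genes. The 7 not tested for low counts were Cacna1f, Cacna1s, Kcne2, Kcng4, Kcnj5, Kcnj14 and Kcnmb1.

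**Figure D3:**
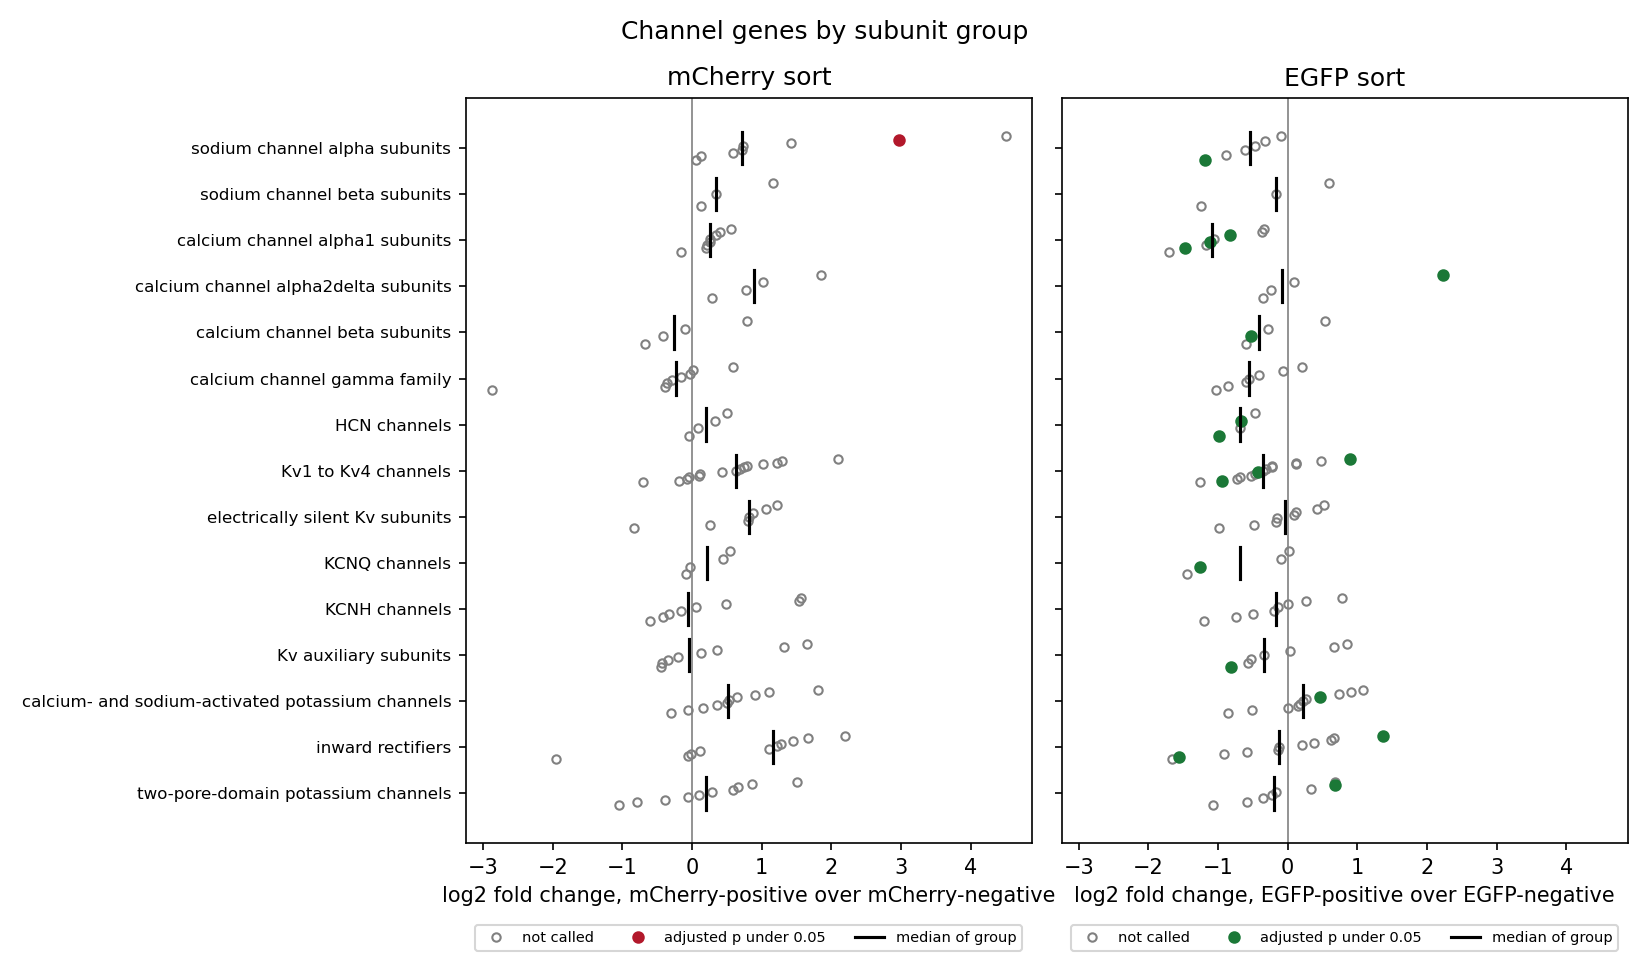
Log2 fold change of each tested channel gene by subunit group, for mCherry-positive over mCherry-negative cells (left) and EGFP-positive over EGFP-negative cells (right); filled points have an adjusted p under 0.05 and bars mark the median of a group. The 8 sodium channel alpha genes tested lie right of 0 in the mCherry sort, with Scn9a filled, and the 6 tested in the EGFP sort lie left of 0. The 8 include Scn7a and Scn11a, which were not tested in the EGFP sort, and Scn7a met the count rule only through the mCherry-positive libraries.

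The 1 called gene was Scn9a (ENSMUSG00000075316), a sodium channel alpha subunit best known from pain-sensing peripheral neurons, at 66480080 to 66634962 on the minus strand of chromosome 2 (GRCm38). It had 6.45, 12.7 and 17.3 CPM in mCherry-positive libraries, against 1.19, 2.18 and 1.11 CPM in mCherry-negative libraries. Every mCherry-positive library stood above every mCherry-negative one, 7.85-fold on the fitted scale, with a log2 fold change of 2.97 ± 0.48 (SE; edgeR adjusted p = 0.0349). The adjusted p was 0.0219 without mCherry-positive replicate 1. It was above 0.05 when any other library was left out, at 0.0716 without mCherry-positive replicate 2, 0.170 without mCherry-positive replicate 3, 0.102 without mCherry-negative replicate 1, 0.113 without mCherry-negative replicate 2 and 0.0769 without mCherry-negative replicate 3, so the call was lost in 5 of 6 such fits, with fewer samples in each. The EGFP sort had no such difference, with 0.411, 0.297 and 1.65 CPM in EGFP-positive libraries and 1.74, 1.201 and 0.675 CPM in EGFP-negative libraries, which overlap.

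The 250 bases before the RefSeq start of Scn9a (GRCm38.p6) are shown because it was the called gene of this sort; capitals mark CTTTGT, the reverse complement of the letters ACAAAG that Sox factors can bind.
Scn9a (chr2:66634963-66635212, minus strand): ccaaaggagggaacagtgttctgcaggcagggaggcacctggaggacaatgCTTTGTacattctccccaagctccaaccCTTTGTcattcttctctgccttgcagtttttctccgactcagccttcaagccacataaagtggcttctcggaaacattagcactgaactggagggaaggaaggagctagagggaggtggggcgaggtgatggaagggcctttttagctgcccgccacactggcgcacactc
The window holds 5 CG dinucleotides, 2 matches of ACAAAG on either strand and no GC box. These Sox letters stood in 15% of channel gene windows and in 16.5% of all windows.

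Scn9a lies in a cluster of sodium channel alpha genes on chromosome 2, shown here after their values were seen. Scn3a and Scn2a are 53.1 kb apart, and Scn1a, Scn9a and Scn7a follow with gaps of 39.2 and 38.5 kb. None of the other 4 passed in the mCherry sort. Scn2a, an alpha subunit of early axons, had 18.7, 35.4 and 26.8 CPM in mCherry-positive libraries, against 11.8, 7.98 and 9.96 CPM in mCherry-negative libraries, without overlap (log2 fold change 1.42 ± 0.29, SE; edgeR adjusted p = 0.0528). Scn7a had 22, 14 and 44 reads in mCherry-positive libraries, against 2, 1 and 0 reads in mCherry-negative libraries (edgeR adjusted p = 0.0788). It reached 10 counts in the 3 mCherry-positive libraries and in no other, so it met the count rule through the group where it is high, and its difference is given as a description.

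The remaining genes of the cluster overlapped between groups. Scn3a, an alpha subunit of embryonic neurons, had 19.6, 44.5 and 59.99 CPM in mCherry-positive libraries, against 23.0, 20.5 and 29.0 CPM in mCherry-negative libraries (log2 fold change 0.74; edgeR adjusted p = 0.287). Scn1a had 3.02, 17.1 and 14.7 CPM in mCherry-positive libraries, against 4.74, 5.40 and 12.4 CPM in mCherry-negative libraries (log2 fold change 0.59; edgeR adjusted p = 0.626). In both, mCherry-positive replicate 1 was below every mCherry-negative library.

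**Figure D4:**
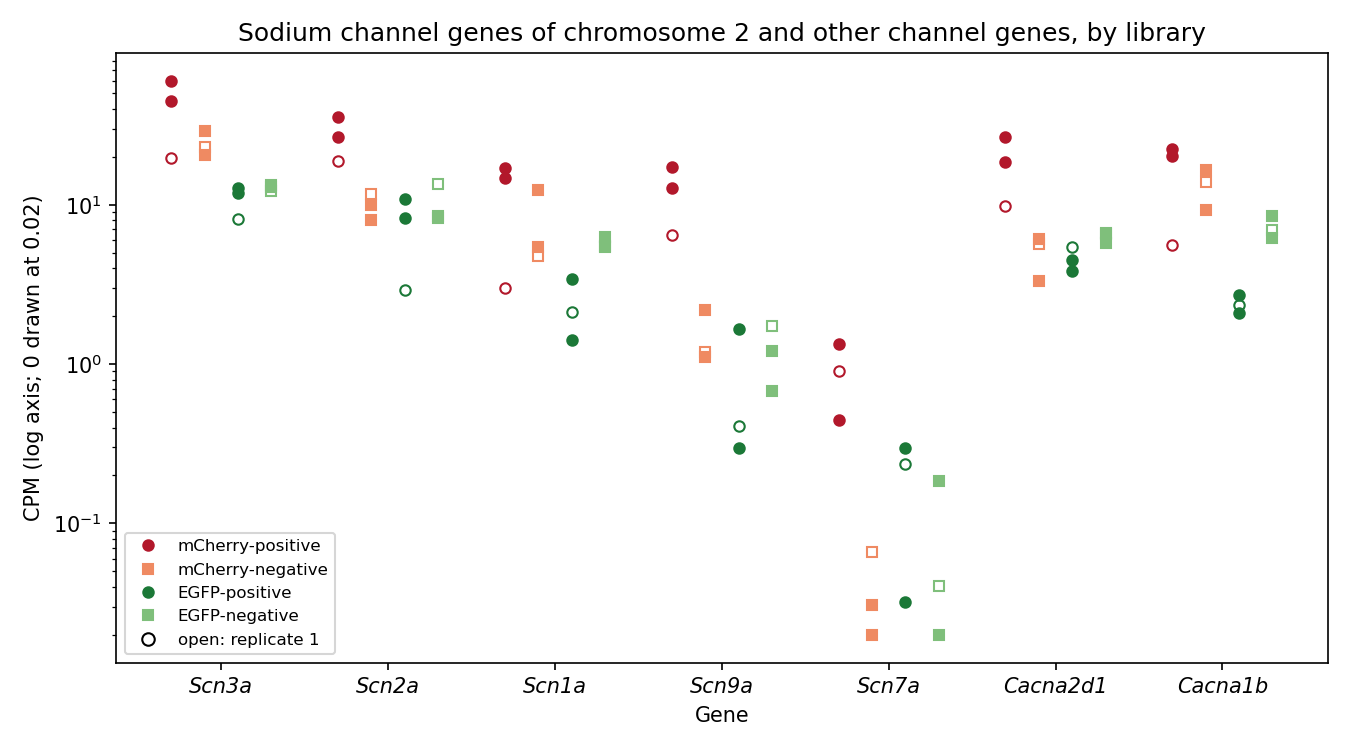
CPM (log axis, 0 drawn at 0.02) by library of the 5 sodium channel genes clustered on chromosome 2 and of Cacna2d1 and Cacna1b, with replicate 1 of each group as an open symbol. Scn9a stands at 6.45 to 17.3 CPM in mCherry-positive libraries and at 2.18 CPM or less in every other library.

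When genes averaging under 2 CPM in the mCherry sort are set aside, the 5 largest changes that did not pass were upward in sign; Cacna2d1, one of them, is given further on. Kcnc4, a fast Kv3 channel, had 2.61, 8.32 and 3.92 CPM in mCherry-positive libraries, against 0.692, 1.17 and 1.57 CPM in mCherry-negative libraries (log2 fold change 2.09 ± 0.60, SE; edgeR adjusted p = 0.114). Kcnip4, a KChIP, had 10.0, 15.3 and 10.6 CPM in mCherry-positive libraries, against 3.49, 5.74 and 1.89 CPM in mCherry-negative libraries (1.66 ± 0.45, SE; edgeR adjusted p = 0.102). Kcnj3, a pore of G protein-gated inward rectifiers, had 8.01, 10.4 and 10.6 CPM in mCherry-positive libraries, against 4.38, 2.70 and 3.32 CPM in mCherry-negative libraries (1.46 ± 0.35, SE; edgeR adjusted p = 0.0801). None of these overlapped between groups, nor did Kcnh1, a channel of the EAG family (1.57 ± 0.63, SE; edgeR adjusted p = 0.227). Opposite-strand exons cover 31.1% of the exonic bases of Kcnj3 and 7.36% of those of Kcnip4.

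For 2 genes under the filter the mCherry-negative libraries held no read. Kcng4, an electrically silent subunit, had 61 reads over the mCherry-positive libraries, at least 19.3-fold higher than the floor of 3 counts over the 3 mCherry-negative libraries. Kcnmb1, a beta subunit of the large-conductance calcium-activated channel known from smooth muscle, had 41 reads, at least 13.0-fold higher by the same floor. Both also had reads in both EGFP groups, where neither was called. These limits pool the reads of the 3 libraries in a group, so they cover counting error only and not the spread among libraries. Both genes were picked because a group held no read. Kcnmb1 lies inside the span of Kcnip1 on the other strand.

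The mCherry-positive libraries were uneven in their channel genes. Replicate 1 was the lowest of the 3 in 77 of the 111 genes tested (69.4%), replicate 2 in 26 (23.4%) and replicate 3 in 8 (7.21%). Over all 17369 genes the shares were 42.7%, 31.9% and 25.4%. Summed neuron markers stood at 1473, 3015 and 2550 CPM in these libraries, against 2216, 2139 and 2851 CPM in the mCherry-negative ones, so replicate 1 was lowest there too. It was highest in microglia markers, at 667 CPM against 79.1 and 93.4 CPM in the other mCherry-positive libraries and 30.3 to 157 CPM in mCherry-negative ones, while pituitary markers took 7.23, 2329 and 5537 CPM in mCherry-positive and 5.96 to 220 CPM in mCherry-negative libraries. Of the marker lists, cell division was lower in 7 of 10 genes (291 to 388 CPM against 800 to 1009 CPM), and Gfap of the astrocyte list and Cfap65 of the ependymal list were higher. No neuron, oligodendrocyte, radial glia, microglia, mural, endothelial or pituitary marker was called by edgeR, and the part of these cells in the channel gene values was not tested.

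The difference between both reporter effects, mCherry minus EGFP, was tested in all 12 libraries. Of the 118 channel genes 2 were called higher and none lower (1.69%), against 1.44% of all 18063 genes, 0.886% higher and 0.559% lower, in the same edgeR test. At an unadjusted p under 0.05 there were 26 (22.0%), against 15.1% of all genes. DESeq2 called 11 higher and none lower, against 3.51% and 1.86% of the 16634 genes it gave an adjusted p, and limma-voom called none, against 0.548% higher and 0.531% lower. The median difference was 0.66 on the log2 scale, against -0.03 for all genes, with 90 positive and 28 negative signs.

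Marker lists differed between the effects as well. Oligodendrocyte and precursor markers were called higher in 9 of 15, with a median difference of 2.06, microglia markers higher in 4 of 10 and neuron markers higher in 2 of 15, Slc17a6 and Nefl. Cell division markers were lower in 6 of 10, mural and fibroblast markers in 2 of 12 (Tagln and Acta2) and astrocyte markers in 1 of 12 (Aldh1l1). No radial glia, ependymal, endothelial or pituitary marker was called by edgeR. In the mCherry sort the summed oligodendrocyte markers took 5579 to 7870 CPM in mCherry-positive libraries, against 5466 to 7027 CPM in mCherry-negative ones, and the EGFP sort is given above. The part of these cell types in the differences between effects was not tested.

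Cacna2d1, an alpha2delta subunit that binds gabapentin, was among the called genes. It had 9.84, 26.7 and 18.5 CPM in mCherry-positive libraries, against 5.63, 3.34 and 6.08 CPM in mCherry-negative libraries. In the other sort it had 5.46, 3.83 and 4.53 CPM in EGFP-positive libraries, against 6.65, 5.74 and 6.57 CPM in EGFP-negative libraries. In plain CPM, all mCherry-positive libraries were above and all EGFP-positive libraries below their negative libraries. The gap in the EGFP sort was narrow, 5.46 against 5.74 CPM, and overlap was not checked on the scale of the fit. Neither effect passed on its own (1.85 ± 0.41 and -0.35 ± 0.22, SE, edgeR adjusted p = 0.0622 and 0.309). Their difference was 2.17 ± 0.48 (SE; edgeR adjusted p = 0.0402).

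This call depended on the samples and the tool: it held in 2 of 12 fits with 1 library left out, at adjusted p of 0.00718 to 0.122 by edgeR, and limma-voom gave 0.0825. The difference for Scn9a was 3.42 ± 0.85 (SE) and did not pass (edgeR adjusted p = 0.0658), so its effect was not shown to differ between the sorts.

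**Figure D5:**
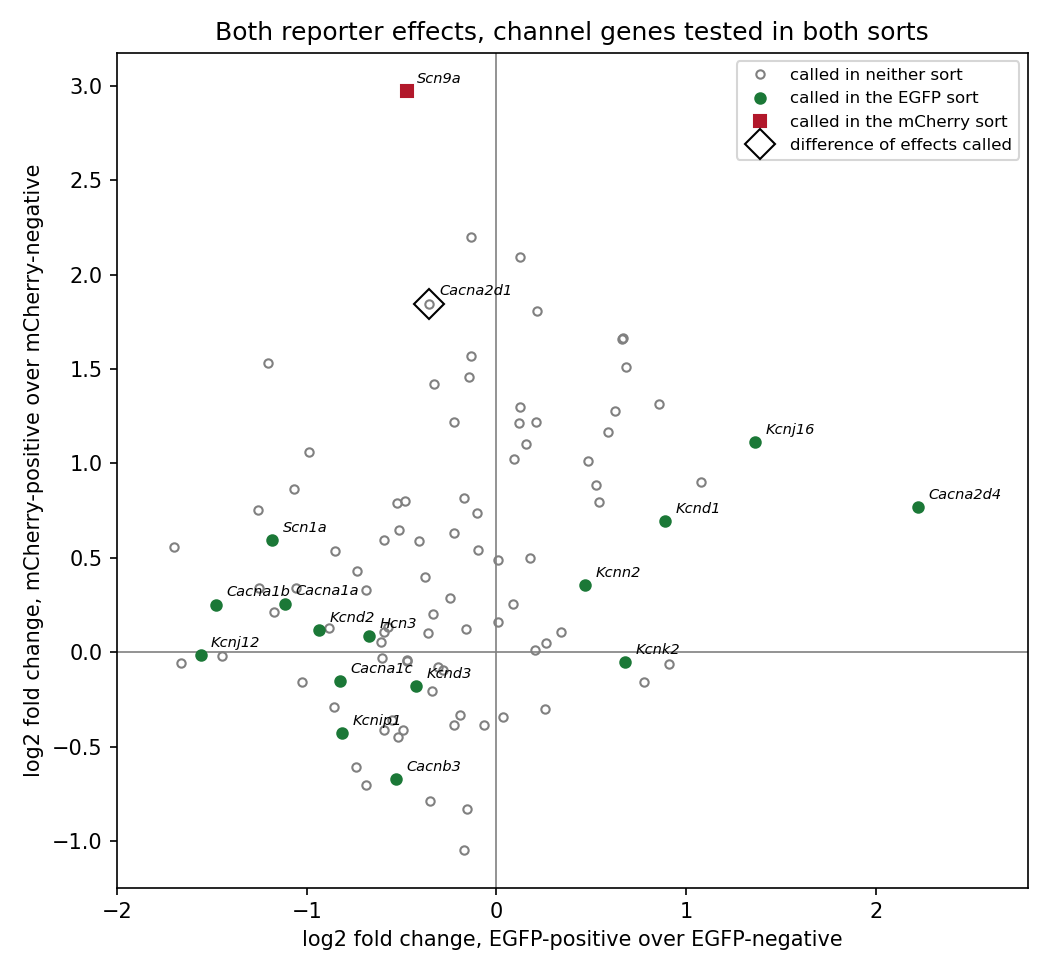
Log2 fold change in the mCherry sort (vertical) against that in the EGFP sort (horizontal) for the channel genes tested in both and described here, with the called genes named and a diamond on Cacna2d1, whose difference was called. Scn9a stands at 2.97 in the mCherry sort, and the 10 genes shown that were called lower in the EGFP sort lie left of 0.

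Genes that work with these channels were listed apart: ion pumps, ankyrin and other scaffold proteins, channel-binding proteins and other channel types, 57 of 59 symbols found. In the EGFP sort 6 of 53 tested were higher and 10 lower, against 8.99% and 7.07% of all genes. The rises included Atp1b2, a sodium pump beta subunit of astrocytes. It had 810 ± 63.6 CPM in EGFP-positive and 482 ± 40.3 CPM in EGFP-negative cells (SD, n = 3 each). The calcium-activated chloride channel Ano1 (log2 fold change 1.68 ± 0.23, SE) and the small G protein Gem, an inhibitor of calcium channels (0.75 ± 0.14, SE), were also higher, with edgeR adjusted p of 0.00202 and 0.00781.

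The falls included Nfasc and Itpr2. Nfasc, a cell adhesion protein that anchors sodium channels at nodes and initial segments, stood at 68.4 ± 15.9 CPM in EGFP-positive and 194 ± 12.5 CPM in EGFP-negative cells (SD, n = 3 each). Itpr2, an intracellular calcium release channel, had 28.5 ± 3.82 CPM in EGFP-positive and 99.5 ± 8.63 CPM in EGFP-negative cells (SD, n = 3 each).

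In the mCherry sort none of 54 partner genes tested was called by edgeR, with 14 at an unadjusted p under 0.05, where 18.6% of all genes stood. The difference between both effects was called higher for 3 of 55 partner genes tested and lower for none, against 0.886% and 0.559% of all genes. Those higher included Itpr2 (2.13 ± 0.30, SE, edgeR adjusted p = 0.00539) and Nfasc (2.03 ± 0.32, SE, edgeR adjusted p = 0.0122). Rest, the repressor of neuronal genes, had 34.2 ± 2.18 CPM in mCherry-positive and 27.2 ± 3.69 CPM in mCherry-negative cells, and 41.2 ± 8.59 CPM in EGFP-positive and 39.6 ± 2.00 CPM in EGFP-negative cells (SD, n = 3 each), with no call in either sort.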

How the data were processed

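The deposited files hold raw counts, whole reads per Ensembl gene, which the authors did not normalize. Per the submitters' processing notes, cutadapt 1.8, STAR 2.5.2b and HTSeq 0.6.1 were used with GRCm38; settings, strand setting and annotation release are not given in the sources used here. Entries that name no gene held 31.4% to 38.2% of counted reads and were left out. GENCODE M21 gave symbols, positions and exon lengths for 48349 of 48709 identifiers; the other 360 took at most 0.0279% of gene reads.

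Each sort had its own fit of 6 samples, by edgeR 4.0.16 under R 4.3.3 (TMM, filterByExpr with minimum count 10 and total 15, quasi-likelihood test, Benjamini-Hochberg over all genes, calls at an adjusted p under 0.05), and the difference of effects on all 12 samples with 1 spread per gene. CPM are plain, without TMM scaling, and overlap between groups was judged on them. Fold changes come from the fits, and the standard error is the log2 fold change over the square root of F. The fits were also run on simulated data, whose outcome is not given here. The common coefficient of variation among libraries was 0.382 in the mCherry fit and 0.189 in the EGFP fit, so counts of calls do not compare directly between the sorts. Alternatives were DESeq2 1.42.0, edgeR with RLE (relative log expression) in place of TMM scaling, and limma-voom (limma 3.58.1). Others were no filter, a stricter filter, 1 fit of all samples, a replicate block, and each library left out. Floors and the fold limits taken from them cover counting error only, while the SD and SE values include the spread among libraries. The reads carry no molecular identifiers, so PCR copies cannot be told from separate molecules.

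The channel genes, the gene lists and the rules were chosen with earlier results of these data known. Named were every called channel gene, the highest per kb of each subunit group, the 5 largest changes not called with a mean of at least 2 CPM per sort, and up to 4 called partner genes per direction; some of these are counted but not reported here by name, and genes outside this rule are given as chosen after their values were seen or for their place beside a named gene.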

Additional observations from a re-analysis of the deposited data

Results flagged for a closer look

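The effects of both reporters differed for Cacna2d1 when the difference itself was tested in all 12 libraries. The mCherry effect exceeded the EGFP effect by 2.17 on the log2 scale (edgeR quasi-likelihood test, adjusted p = 0.0402). In plain CPM, every mCherry-positive library was above and every EGFP-positive library below the negative libraries of its sort. The gap in the EGFP sort was narrow, and overlap was not checked on the TMM scale of the fit. The call held in 2 of 12 fits with 1 library left out, and limma-voom gave an adjusted p of 0.0825. Oligodendrocyte and precursor markers were called higher for the same difference in 9 of 15 (median 2.06 on the log2 scale), microglia markers in 4 of 10 and neuron markers in 2 of 15, and cell division markers lower in 6 of 10. Summed neuron markers were also lower in EGFP-positive libraries, at 1110 to 1399 CPM, against 1882 to 1927 CPM in EGFP-negative libraries, and the part of these cell types in this difference was not tested.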

How the results depend on the processing

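No channel gene that was called changed direction under any alternative run. RLE scaling in edgeR gave the same counts as the TMM fits, and the cause of the other changes was not tested. Higher in mCherry-positive cells, against 1 channel gene, were 11 with DESeq2, 12 in the fit of all 12 samples, 7 without a filter and 3 with a stricter filter; lower, against 0, was 1 with DESeq2. Higher in EGFP-positive cells, against 5, were 2 in the fit of all 12 samples; lower, against 12, were 22 with DESeq2 and 4 in the fit of all 12 samples. For the difference of effects, against 2 higher, DESeq2 gave 11, limma-voom 0 and no filter 6. The shares of all genes called without a filter, with a stricter filter or with 1 library left out are not given here. Those counts therefore do not set channel genes apart from other genes.

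With 1 library left out, fewer samples entered each fit. The mCherry count of higher genes ran from 0 to 3: it was 3 without mCherry-positive replicate 1 and 0 without each of the other 5, and the count of lower genes was 0 in all 6. In the EGFP sort higher genes ran from 1 to 9 and lower genes from 3 to 26. They were 9 and 26 without EGFP-positive replicate 1, 1 and 3 without EGFP-positive replicate 2, 3 and 11 without EGFP-positive replicate 3, 3 and 5 without EGFP-negative replicate 1, 1 and 5 without EGFP-negative replicate 2, and 2 and 7 without EGFP-negative replicate 3. The difference ran from 0 to 9 higher and from 0 to 1 lower, with 9 and 1 without mCherry-positive replicate 1, 2 higher without mCherry-negative replicate 3, 1 higher without EGFP-positive replicates 1 or 3, and 0 higher without each of the other 8. Kcnip1 was called in 5 of 6 such fits, Cacna1a and Kcnj12 in 4, Cacna2d4 and Kcnk2 in 3, Kcnd1 and Scn1a in 2, and Cacna1c, Cacnb3, Hcn3, Kcnd3 and Kcnn2 in 1, the fit without EGFP-positive replicate 1.

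Replicate numbers are shared by the groups. Deviations of same-numbered libraries correlated at 0.123, -0.0164 and 0.0271 in the mCherry sort and at 0.113, -0.0076 and 0.0254 in the EGFP sort. These values did not show pairing, but 3 libraries per group cannot exclude it. With a replicate block, 2 channel genes rose and 0 fell in mCherry-positive cells, and 7 rose and 21 fell in EGFP-positive cells. For the difference of effects 0 were called, and Cacna2d1 had an adjusted p of 0.0848 by edgeR. The shares of all genes called with this block are not given here, so these counts do not set channel genes apart from other genes.

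Depth was limiting for genes near 10 reads per library, such as Scn7a and Cacna1f. Cacna2d4, with 546 reads over all libraries, is the least abundant of the called genes.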
